A study of Homo sapiens with 4 samples.

Results

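Telomerase, the box H/ACA ribonucleoprotein (RNP) and shelterin were followed in J.gamma1 cells through 10 genes, chosen by name and each matched by its symbol to 1 Ensembl ID of the deposited table. They are TERT, the H/ACA genes DKC1, NHP2, NOP10 and GAR1, the trafficking gene WRAP53, and the shelterin genes TERF1, TERF2, TINF2 and POT1. All 10 were found among the 64252 IDs of the table, and all 10 passed the filter on low counts, which left 18817 genes. J.gamma1 is a derivative of the human T-cell acute lymphoblastic leukaemia line Jurkat, known for a defect in the signalling enzyme PLCG1. The FB23-2 group received 10 µM FB23-2 for 48 h, a small-molecule inhibitor of the RNA demethylase FTO, and the control group received the vehicle DMSO at under 0.1% for the same time. Each group held 2 libraries, described by the submitters as independent biological replicates of this 1 line.

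Telomerase adds telomeric repeats to chromosome ends by copying a template in its own RNA, TERC. The protein TERT carries the reverse transcriptase, and it is silent in most somatic cells but active in most cancers and leukaemia lines. TERC ends in an H/ACA domain, bound by dyskerin (DKC1), NHP2, NOP10 and GAR1, the proteins that also form the H/ACA RNPs which convert uridine to pseudouridine in ribosomal and spliceosomal RNA. WRAP53, also called TCAB1, takes telomerase and related RNPs to Cajal bodies. Shelterin coats the finished telomere: TERF1 and TERF2 bind double-stranded repeats, POT1 binds the single-stranded end, and TINF2 links them.

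Library totals ran from 24615359 to 37804516 counts. Levels are given as CPM (counts scaled to a library of 1000000) after TMM scaling, group levels as mean ± SD of 2 libraries, and differences as log2 fold changes of the FB23-2 libraries against control, with a standard error (SE). A gene was called changed at an adjusted p under 0.05 (edgeR, Benjamini-Hochberg over all tested genes). FTO, the enzyme the compound inhibits, stood at 55.9 ± 0.0214 CPM in the vehicle group and 61.8 ± 1.44 CPM with FB23-2, and PLCG1 RNA, which was present, at 265 ± 0.276 and 293 ± 2.49 CPM. FTO was not called (adjusted p = 0.0738 by edgeR), and PLCG1 was higher (adjusted p = 0.0125 by edgeR). All 11 T-cell markers examined reached 1 CPM in every library. Their summed level was 2041 to 2047 CPM in control and 1471 to 1550 CPM with FB23-2. Of these 11, 8 were lower, next to 20.3% of all tested genes. Of 10 markers of other blood lineages 2 reached 1 CPM in every library (CD79A and NKG7), with summed levels of 43.6 to 50.4 and 48.5 to 50.4 CPM. Of 6 genes listed as epithelial and stromal markers 3 did so (KRT8, COL1A1 and PECAM1), with sums of 117 to 120 and 61.0 to 66.1 CPM. Most of these sums came from PECAM1 (108 ± 1.78 CPM in control, 53.8 ± 3.12 CPM with FB23-2), which is not specific to epithelium or stroma. Of the 6, PECAM1 and COL1A2 were lower, KRT8, KRT18 and COL1A1 were not called, and EPCAM did not pass the filter on low counts. No marker was at 0 in all libraries, and the part of these marker shifts in the results below was not tested.

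The 10 genes divided by role. TERT and the 4 H/ACA genes fell, WRAP53 was not called, and of the 4 shelterin genes TERF2 was called, in the other direction and by a small amount. In counts, 5 of 10 were lower, against 20.3% of all tested genes, and 1 of 10 was higher, against 21.8%. The median log2 fold change of the 10 was -0.19, and that of all tested genes was 0.00. The 2 libraries of one group did not overlap those of the other for 9 of the 10 genes, a separation seen in 70.8% of all tested genes: 6 lower, next to 34.5% of tested genes, and 3 higher, next to 36.3%. In bulk RNA, fewer cells carrying a transcript and less of it per cell cannot be told apart.

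**Figure D1:**
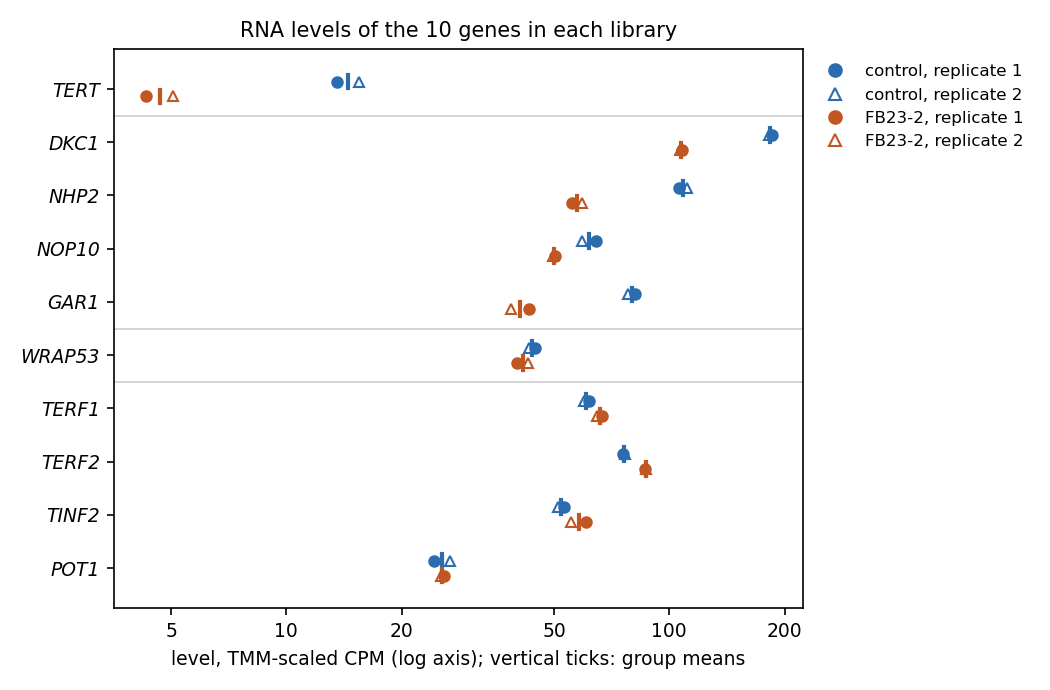
Level of each gene in each library, as TMM-scaled CPM on a log axis, with control in blue and FB23-2 in orange, replicates as circles and triangles and group means as vertical ticks. TERT, DKC1, NHP2 and GAR1 lie well to the left with FB23-2, NOP10 by less, and the 2 groups lie close together for WRAP53 and the shelterin genes, with overlap for POT1 alone.

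TERT, the catalytic subunit of telomerase (ENSG00000164362, hg38 chromosome 5, 1253147 to 1295069, minus strand), had 13.5 and 15.5 CPM in the control libraries and 4.29 and 5.04 CPM in the FB23-2 libraries. Both FB23-2 values lay below both control values. The log2 fold change was -1.65 ± 0.15 (adjusted p = 3.10e-05 by edgeR), a 3.15-fold lower level. Of the 18817 tested genes 348, or 1.85%, had a lower log2 fold change. TERT was also the scarcest of the 10, with raw counts of 326 and 534 in control and 164 and 175 with FB23-2, and its SE was the widest among them. Leaving out single libraries kept the log2 fold change between -1.76 and -1.54, and the edgeR adjusted p between 0.000343 and 0.00146.

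The 4 proteins of the H/ACA core are encoded by genes of different size and abundance. DKC1 encodes dyskerin, the pseudouridine synthase of the particle and the protein altered in X-linked dyskeratosis congenita (ENSG00000130826, chromosome X, 154762742 to 154777689, plus strand). It had 185 and 182 CPM in the control libraries and 108 and 107 CPM in the FB23-2 libraries. The groups were far apart next to the distance between replicates, and the log2 fold change was -0.77 ± 0.04 (adjusted p = 2.03e-06 by edgeR). GAR1, which binds dyskerin and joins the particle late in its assembly (ENSG00000109534, chromosome 4, 109815510 to 109824740, plus strand), had 81.5 and 78.2 CPM in the control libraries and 42.9 and 38.7 CPM in the FB23-2 libraries. Its log2 fold change of -0.96 ± 0.07 (adjusted p = 6.28e-06 by edgeR) was within 1 SE of that of NHP2, and their order turned when FB23-2 replicate 2 or control replicate 1 was left out. A level near 40 CPM with FB23-2 against about 80 in control is 1.95-fold lower.

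NHP2 contacts the guide RNA next to the dyskerin and NOP10 pair (ENSG00000145912, chromosome 5, 178149460 to 178153967, minus strand). Its levels were 106 and 111 CPM in the control libraries and 55.6 and 59.2 CPM in the FB23-2 libraries. The log2 fold change was -0.92 ± 0.06 (adjusted p = 3.40e-06 by edgeR), and both FB23-2 libraries lay below both control libraries. NHP2 shares 27.4% of its exon bases with RMND5B on the opposite strand, which was higher with FB23-2 (0.29 ± 0.08, adjusted p = 0.0132 by edgeR), and without a stated strand setting their reads cannot be told apart there.

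NOP10, a very small protein that braces the catalytic domain of dyskerin (ENSG00000182117, chromosome 15, 34341713 to 34343177, minus strand), had 64.5 and 59.1 CPM in the control libraries and 50.3 and 49.8 CPM in the FB23-2 libraries. The groups did not overlap, but they were closer than for the other 3 genes, at -0.30 ± 0.07 (adjusted p = 0.00495 by edgeR). Removing trends of the fold change with GC content and transcript length ended this call, at a log2 fold change of -0.12 (adjusted p = 0.155 by edgeR, with alternatives spanning 0.00166 to 1.00). Its annotated transcript of 554 bases is the shortest of the 10. The summed level of the 4 H/ACA genes was 437 and 431 CPM in control against 257 and 254 CPM with FB23-2.

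WRAP53 (ENSG00000141499, chromosome 17, 7686071 to 7703502, plus strand) had 44.6 and 43.0 CPM in the control libraries and 40.1 and 42.7 CPM in the FB23-2 libraries. Its libraries did not overlap between groups, yet the nearest values of the 2 groups were less than 1 CPM apart, and the difference, -0.08 ± 0.07 on the log2 scale, was not called (adjusted p = 0.401 by edgeR). None of the 14 alternatives called it either, and their adjusted p spanned 0.203 to 1.00.

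Among the shelterin genes, TERF2 encodes TRF2, which folds and shields the chromosome end (ENSG00000132604, chromosome 16, 69355561 to 69408571, minus strand). It had 75.7 and 76.6 CPM in the control libraries and 86.5 and 86.8 CPM in the FB23-2 libraries. Replicates agreed to within 1 CPM, the groups were about 10 CPM apart, and the log2 fold change was 0.19 ± 0.05 (adjusted p = 0.0152 by edgeR). The direction held in each alternative, but no fit that dropped a library called it. Its edgeR adjusted p in those fits was 0.0741 and 0.0520 without the first and the second FB23-2 replicate, and 0.111 and 0.0739 without the first and the second control replicate, with alternatives spanning 0.00509 to 1.00.

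TERF1 encodes TRF1, which helps replication forks pass through the repeats (ENSG00000147601, chromosome 8, 73008864 to 73048122, plus strand). It had 61.6 and 59.8 CPM in the control libraries and 66.9 and 64.7 CPM in the FB23-2 libraries, with 0.12 ± 0.06 (adjusted p = 0.132 by edgeR). TINF2 encodes TIN2, the bridge of the complex (ENSG00000092330, chromosome 14, 24239643 to 24242674, minus strand), and its libraries held 53.1 and 51.3 CPM in the control libraries and 60.6 and 55.4 CPM in the FB23-2 libraries, with 0.15 ± 0.07 (adjusted p = 0.0965 by edgeR). Both sets of FB23-2 values lay above the control values, by less than 10 CPM, and neither gene was called. With scaling by library size alone both passed (adjusted p = 0.0414 by edgeR for TERF1, with alternatives spanning 0.0414 to 1.00, and 0.0333 for TINF2, with alternatives spanning 0.0333 to 1.00), and TINF2 also passed after removal of the GC and length trends (0.0338).

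POT1 caps the single-stranded overhang (ENSG00000128513, chromosome 7, 124822386 to 124929983, minus strand), and it had 24.3 and 26.8 CPM in the control libraries and 25.8 and 25.3 CPM in the FB23-2 libraries. Here the FB23-2 values fell between the control values, and the log2 fold change was -0.01 ± 0.09 (adjusted p = 0.959 by edgeR). The remaining subunits of shelterin are ACD, the TPP1 protein that recruits telomerase, and TERF2IP, the RAP1 partner of TRF2. ACD stood at 48.6 ± 2.06 CPM in the DMSO libraries and 53.3 ± 0.187 CPM with FB23-2 (0.13 ± 0.06, adjusted p = 0.137 by edgeR), and it passed only after removal of the GC and length trends (0.0211, with alternatives spanning 0.0211 to 1.00). TERF2IP stood at 122 ± 2.44 CPM and 128 ± 9.06 CPM (0.08 ± 0.06, adjusted p = 0.322 by edgeR), with libraries that overlapped between groups. Small parts of the exon bases of these genes are shared with others: 1.88% of POT1 with its antisense gene POT1-AS1, 1.74% of TERF2 with an unnamed gene, 1.80% of ACD with CARMIL2 and 5.21% of TERF2IP with KARS1. CARMIL2 (-0.92 ± 0.06, adjusted p = 3.99e-06 by edgeR) and KARS1 (-0.35 ± 0.04, adjusted p = 9.40e-05 by edgeR) lie on the opposite strand and were lower. Without a stated strand setting, reads in these shared bases cannot be told apart.

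**Figure D2:**
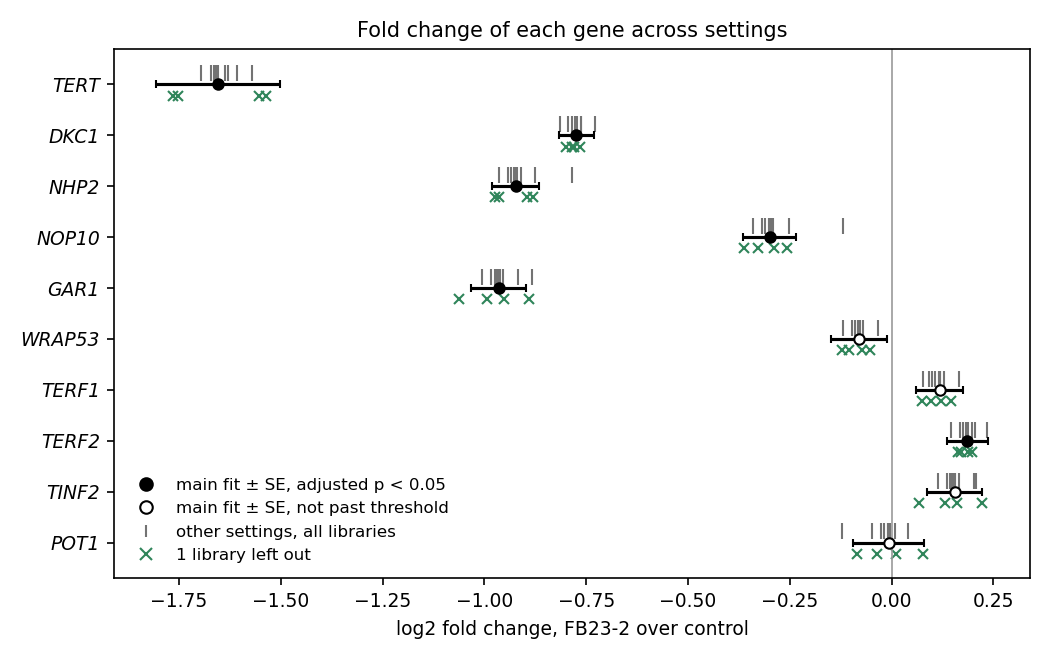
Log2 fold change of each gene, FB23-2 over control. Circles with bars give the main value ± SE, filled where the adjusted p was under 0.05, grey marks the other settings with all libraries and green crosses the fits with 1 library left out. TERT, DKC1, NHP2 and GAR1 keep to the left of 0 with little movement, NOP10 moves to -0.12 in 1 setting, and POT1 straddles 0.

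Because each library gives all 10 genes at once, ratios between genes inside a library need no scaling between libraries. Per 100 counts of DKC1, TERT had 7.31 and 8.52 in the control libraries and 3.98 and 4.72 in the FB23-2 libraries. The ratio was lower with FB23-2, with a log2 difference of -0.86, so TERT was lower relative to dyskerin as well. For NOP10 the ratio moved the other way, with 34.9 and 32.5 in the control libraries and 46.7 and 46.6 in the FB23-2 libraries, a log2 difference of 0.47. WRAP53 had 24.1 and 23.6 in the control libraries and 37.2 and 40.0 in the FB23-2 libraries. NHP2 and GAR1 kept nearer to DKC1: NHP2 had 57.2 and 61.3 in the control libraries and 51.6 and 55.5 in the FB23-2 libraries. GAR1 had 44.0 and 43.0 in the control libraries and 39.8 and 36.3 in the FB23-2 libraries. None of these 5 ratios overlapped between the groups, and an exact two-sided permutation test on 2 against 2 libraries cannot go below p = 0.333, the value each of them had.

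Inside the shelterin complex the ratios moved less. Per 100 counts of TERF1, TERF2 had 123 and 128 in the control libraries and 129 and 134 in the FB23-2 libraries, a log2 difference of 0.07. TINF2 had 86.2 and 85.8 in the control libraries and 90.6 and 85.6 in the FB23-2 libraries, with overlap between the groups. POT1 had 39.4 and 44.8 in the control libraries and 38.5 and 39.2 in the FB23-2 libraries. Of the ratios computed, the widest shifts were between the complexes, with a log2 difference of 0.90, and of TERT against DKC1, at -0.86. The TERT ratio differed between replicates by more than the gap between these shifts, so they are not ranked. TERT was not set against the shelterin genes. Per 100 counts of the 4 H/ACA genes, the 4 shelterin genes together had 49.2 and 49.8 in the control libraries and 93.5 and 91.3 in the FB23-2 libraries. That is near 1 shelterin count for every 2 H/ACA counts in control, and close to parity with FB23-2.

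**Figure D3:**
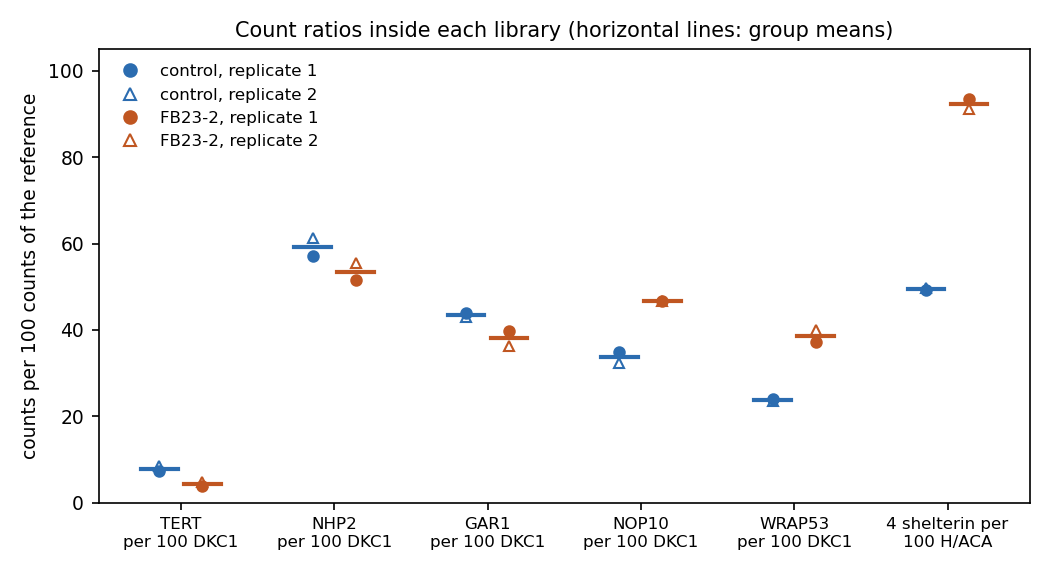
Counts of a gene per 100 counts of DKC1 in the same library, and of the 4 shelterin genes per 100 counts of the 4 H/ACA genes, with lines at the group means. The last ratio goes from about 49 to about 92, NOP10 and WRAP53 lie higher against DKC1 with FB23-2, and TERT lies lower.

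Levels of different genes were compared per kilobase of the longest annotated transcript. In control the order was NHP2 (126 CPM per kb), NOP10 (112), GAR1 (65.2), DKC1 (59.6), TERF2 (25.5), TINF2 (24.1), TERF1 (16.9), WRAP53 (10.9), POT1 (6.26) and TERT (3.61). No neighbours in that order had overlapping libraries. With FB23-2, NOP10 (90.3 CPM per kb) stood above NHP2 (66.4), and DKC1 (34.8) and GAR1 (33.3) overlapped. TERF2 followed at 29.1 CPM per kb, and TERT was last at 1.16. The distance between the H/ACA genes and the shelterin genes was narrower with the compound. Each gene is divided by the same length in both groups, so this restates the counts and is no second result. The order depends on the length used: over the union of annotated exons NOP10 led in both groups, DKC1 stood above GAR1 in control, and TINF2 overlapped GAR1 with FB23-2. TERT was lowest on either length.

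Promoter windows, of 250 bases before and 50 after each start in RefSeq (GRCh38.p14), were found for 8 of the 10 genes, in 12 windows. TERF1 and TERF2 had no window and were not examined. The 12 windows were read for 3 short motifs on both strands. The first was the E-box CACGTG, a palindrome bound by MYC with MAX and by other factors of that class. The second was the GC box GGGCGG of the SP family, and the third the ETS motif CCGGAAG. Shown here, 5′ to 3′ on the strand of the gene, are the 250 bases before the outermost start of the genes with the greatest and the least fall among the 5 called lower, TERT (chr5:1295069-1295318, minus strand) and NOP10 (chr15:34343137-34343386, minus strand), and of the H/ACA genes NHP2 (chr5:178153886-178154135, minus strand) and GAR1 (chr4:109815260-109815509, plus strand), so that windows with and without an E-box stand together. Capitals mark the E-box and the GC box on either strand.
TERT: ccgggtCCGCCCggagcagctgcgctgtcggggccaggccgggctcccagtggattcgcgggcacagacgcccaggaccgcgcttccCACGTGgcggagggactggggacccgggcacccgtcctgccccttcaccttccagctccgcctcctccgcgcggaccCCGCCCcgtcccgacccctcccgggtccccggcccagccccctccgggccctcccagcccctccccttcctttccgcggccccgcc
NOP10: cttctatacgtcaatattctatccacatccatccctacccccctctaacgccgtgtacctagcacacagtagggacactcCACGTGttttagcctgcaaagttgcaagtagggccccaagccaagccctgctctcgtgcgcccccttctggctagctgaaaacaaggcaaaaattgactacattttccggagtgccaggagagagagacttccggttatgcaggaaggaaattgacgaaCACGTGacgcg
NHP2: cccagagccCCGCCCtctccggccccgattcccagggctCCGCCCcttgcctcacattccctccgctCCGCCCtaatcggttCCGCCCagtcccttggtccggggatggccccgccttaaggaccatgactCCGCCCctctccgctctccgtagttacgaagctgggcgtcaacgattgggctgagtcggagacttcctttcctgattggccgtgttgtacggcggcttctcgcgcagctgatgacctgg
GAR1: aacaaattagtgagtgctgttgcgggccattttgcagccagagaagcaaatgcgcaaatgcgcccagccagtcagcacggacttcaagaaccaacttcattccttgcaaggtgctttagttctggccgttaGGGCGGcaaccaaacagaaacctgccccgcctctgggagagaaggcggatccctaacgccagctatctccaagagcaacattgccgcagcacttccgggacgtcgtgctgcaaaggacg

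The TERT window held 1 E-box, 163 bases before the start, and 3 GC boxes, 1 of which crosses the start and is not in capitals. NOP10 held 2 E-boxes, 170 and 11 bases before the start, an ETS motif 42 bases before it and a GC box 4 bases after it, outside the printed stretch. A GC box was found for all 8 genes. NHP2 held 5 GC boxes and no E-box, and DKC1 4 GC boxes, 2 of them overlapping, and no E-box. GAR1 held 1 GC box and an ETS motif 28 bases before its outer start, and an E-box only 32 bases after its second, inner start. Neither WRAP53, TINF2 nor POT1 had an E-box in its windows. TINF2, which was not called, held an ETS motif 44 bases after its outer start and 8 bases before its inner start. The ETS motif was found for 3 of the 8 genes, GAR1, TINF2 and NOP10. Among all 35116 RefSeq windows the share was 7.26% for the E-box, 45.0% for the GC box and 10.3% for the ETS motif, and among windows of tested genes 9.29%, 64.2% and 15.9%. These shares are per window, while a gene above was counted on a match in any of its windows. In GENCODE release 29 the outermost start lies 122 bases further upstream for DKC1, 82 for NHP2 and 41 for NOP10. A match describes the letters of a window only.

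Factors known to act on the TERT promoter formed a list of 20 tested genes. In it 9 were lower and 6 higher, next to 20.3% and 21.8% of all tested genes. The median log2 fold change of the list was -0.15. MYC, an activator of TERT, was lowest, at 367 ± 1.08 CPM under DMSO and 62.5 ± 5.64 CPM under FB23-2 (-2.55 ± 0.06). MXD1, a MAX partner that competes with MYC, went from 13.4 ± 0.0808 CPM to 34.1 ± 0.406 CPM (1.35 ± 0.09), and the related repressor MXI1 rose as well (0.57 ± 0.07). SP3 (0.40 ± 0.04) and USF1 (0.31 ± 0.05), which bind the GC box and the E-box, were higher. WT1 (-0.65 ± 0.12), the GABP subunit GABPB1 (-0.53 ± 0.07) and menin, MEN1 (-0.52 ± 0.06), were lower. These calls are edgeR adjusted p values of 3.77e-08 for MYC to 0.00216 for WT1. What moved with TERT in this list does not show what acted on it, which was not tested.

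Particles assembled by related machinery gave a near comparison. The 4 core proteins of the box C/D RNP, which guides 2'-O-methylation of ribosomal RNA, were all lower, next to 20.3% of all tested genes. Their median was -0.89, next to -0.85 for the 4 H/ACA genes. NOP56 (-1.32 ± 0.05), the methyltransferase FBL (-0.92 ± 0.06) and NOP58 (-0.85 ± 0.05) moved by like or larger amounts than DKC1, and SNU13, the smallest of them and a relative of NHP2, by less (-0.39 ± 0.06, adjusted p = 0.000511 by edgeR). NOP10 (-0.30) and SNU13 (-0.39) had the smallest changes of their sets, though any set of 4 has a smallest. Neither was called in the test against 1.5-fold.

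Of 13 assembly factors of the H/ACA RNP and telomerase, 8 were lower and 1 higher. Among all tested genes 20.3% were lower and 21.8% higher. The median of the 13 was -0.54. NOLC1, a chaperone of these RNPs in nucleoli and Cajal bodies, went from 280 ± 12.0 CPM to 122 ± 0.267 CPM (-1.21 ± 0.05). SHQ1, which holds dyskerin before RNA binding (-0.62 ± 0.05), NAF1, which is replaced by GAR1 (-0.63 ± 0.08), and the ATPase RUVBL1 (-0.76 ± 0.06) were lower too. RPAP3, of the R2TP co-chaperone, was the gene called higher (0.17 ± 0.05, adjusted p = 0.0255 by edgeR), and 9 of the 14 alternatives did not call it, each of those without 1 library among them (0.0565 to 0.160, with alternatives spanning 0.00741 to 1.00).

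Of 12 tested genes that process TERC, 5 were not called. The other 7 were lower, next to 20.3% of all tested genes. The cap-binding NCBP2 (-0.73 ± 0.05), the cap hypermethylase TGS1 (-0.46 ± 0.06), the helicase MTREX of the nuclear exosome (-0.41 ± 0.05) and the deadenylase TOE1 (-0.40 ± 0.10) led these 7. TOE1 was not called without FB23-2 replicate 1 (adjusted p = 0.0591 by edgeR) or control replicate 2 (0.151), with alternatives spanning 0.00439 to 1.00, and it shares 20.1% of its exon bases with MUTYH on the opposite strand. TERC itself had 1 count in 1 library of each group and 0 in the others, under the 3 counts (0.0785 to 0.125 CPM) that a count of 0 allows, so that no change in it was detectable. It shares 81.0% of its exon bases with an annotated gene on the same strand, Telomerase-vert, which had the same count as TERC in every library, and how reads were assigned between them is not given in the labels.

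Genes that copy and process telomeres after telomerase were higher in 5 and lower in 4 of 13 tested cases, with a median of 0.01, where 21.8% of all tested genes were higher and 20.3% lower, with a median of 0.00. CTC1, of the CST complex that ends telomerase action, went from 37.1 ± 3.30 CPM to 54.2 ± 1.09 CPM (0.54 ± 0.08). PRIM1, of primase (0.50 ± 0.05), the helicase BLM (0.39 ± 0.06) and the nuclease DCLRE1B, also called Apollo (0.37 ± 0.06), were higher, and the polymerase subunit POLA1 (-0.73 ± 0.07) was lower. The helicases RTEL1 (-0.40 ± 0.09) and WRN (-0.20 ± 0.06) and the flap nuclease FEN1 (-0.15 ± 0.05) were lower by smaller amounts. PRIM1 shares 14.9% of its exon bases with an unnamed gene on its own strand. RTEL1 shares 70.2% of its exon bases with a read-through gene and is uncertain, and it was not called without control replicate 2 (adjusted p = 0.0796 by edgeR, range 0.00342 to 1.00). WRN and FEN1 were each not called in 7 of the 14 alternatives. WRN failed without any 1 library (0.0517 to 0.141, range 0.00264 to 1.00), and FEN1 without FB23-2 replicate 2 (0.164) or control replicate 2 (0.316, range 0.0101 to 1.00).

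Of 17 tested partners of shelterin and telomeric chromatin 6 were higher, next to 21.8% of all tested genes, and 3 lower, a share of 17.6% that is near the 20.3% of all tested genes, with a median of 0.10. NEK7, a kinase reported to stabilise TRF1, went from 251 ± 7.19 CPM to 391 ± 6.42 CPM (0.64 ± 0.04). The nuclease scaffold SLX4 (0.60 ± 0.07), tankyrase TNKS2, which releases TRF1 from telomeres (0.48 ± 0.05), and the nuclear receptor NR2F2 (0.38 ± 0.11) were higher. FBXO4, a ubiquitin ligase subunit that targets TRF1 (-0.62 ± 0.13), SMG6 (-0.27 ± 0.06) and SMG5 (-0.16 ± 0.05) were lower. SMG6 shares 22.9% of its exon bases with HIC1 on the opposite strand. Calls were lost for NR2F2 in 3 of the 4 fits that dropped a library, those without either control replicate or the first FB23-2 replicate (edgeR adjusted p of 0.0518 to 0.109, range 0.00949 to 1.00), for FBXO4 without control replicate 2 (0.0686, range 0.00198 to 0.832), and for SMG5 without FB23-2 replicate 2 or either control replicate (0.0551 to 0.111, range 0.00589 to 1.00).

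**Figure D4:**
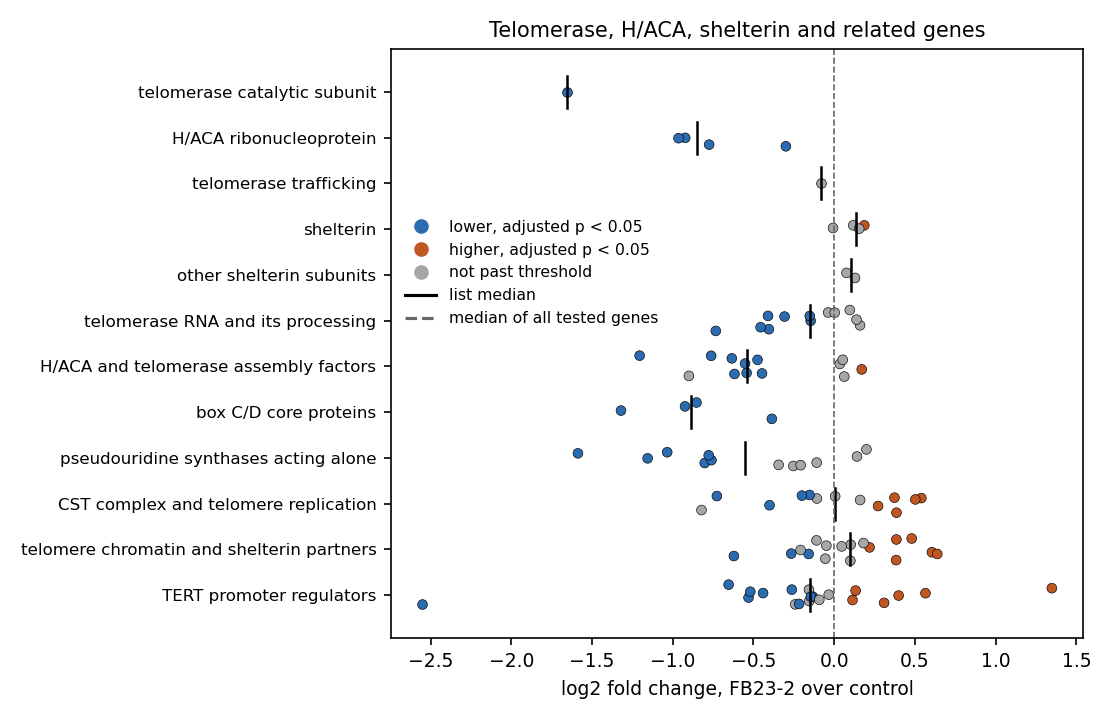
Log2 fold change, FB23-2 over control, of every tested gene in each list, blue where lower, orange where higher and grey where not past the threshold, with the list median as a black line and the median of all tested genes dashed. TERT, the H/ACA and the box C/D genes lie to the left, shelterin lies close to the dashed line, and the lists of telomere replication and chromatin spread to both sides.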

How the data were processed

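RNA of 4 libraries of J.gamma1 cells was compared, 2 per group. The values are whole-number counts per gene, deposited by the authors as 1 table without normalization. The submitters' processing notes list HISAT2 2.2.0 and StringTie as tools and hg38 as the build. Not given in the sources used here are the annotation, the strand setting and how counts were made. Symbols came from a list of gene names, coordinates, lengths and exon overlaps from GENCODE release 29, and promoter windows from RefSeq.

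Genes were kept by filterByExpr (minimum count 10), scaled by TMM and tested with the quasi-likelihood test of edgeR 4.0.16 (robust, version 4 method) in R 4.3.3, with Benjamini-Hochberg adjustment over 18817 genes. The SE is the absolute log2 fold change over the square root of F. The fit was tested on simulated data. The FB23-2 libraries summed to 37804516 and 33983246 and the control libraries to 24615359 and 34897961. The biological coefficient of variation was 10.5%, and limits from counts cover counting error only. Replicates differed beyond counting noise, with a chi-square per degree of freedom of 6.69 and 7.48 within groups.

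Alternatives were RLE, upper quartile or library size scaling, no filter or one of 50 counts, DESeq2 1.42.0, limma 3.58.1 (voom), a test against 1.5-fold, a replicate block, removal of GC and length trends (splines per library; 93.1% of tested genes had both), and each library left out. The members and lists were chosen with earlier results of these data known. Named were all 10 members, all genes of lists of 4 or fewer, and up to 4 called genes per direction of longer lists by size of change, with TERC, MYC, FTO, PLCG1 and genes overlapping a member. PINX1 matched 2 IDs, of which the one with counts was used.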

Additional observations from a re-analysis of the deposited data

How the results depend on the processing

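TERT, DKC1, NHP2 and GAR1 were called lower in all 14 alternatives. NOP10 was not called in the test against 1.5-fold (adjusted p = 1.00) or after removal of GC and length trends, so that 4 members were lower there, and 5 elsewhere. Against 1.5-fold, 434 genes were higher and 678 lower, where the main counts were 4097 and 3820, and 0 members were higher (0 at an unadjusted p under 0.05). The count of members called higher, 1 in the main analysis and with DESeq2 and limma, was 3 with library size scaling, 2 after removal of GC and length trends and 0 with edgeR without any 1 library, where 1 or 2 members were higher at an unadjusted p under 0.05. With 1 library left out of a group, the lone library is assumed to vary like the other group. POT1, never called, changed sign with library size scaling (0.039), DESeq2 (0.0091) and without FB23-2 replicate 2 or control replicate 2 (-0.086 to 0.076 over the fits without 1 library), and TERF2IP without FB23-2 replicate 1 (-0.017 to 0.15 over those fits). The labels do not say whether same-numbered libraries shared more than a number (correlation of their differences 0.0623 over genes). With the replicate block 4238 genes were higher and 4030 lower, and 1 and 5 of the members. Of 728 values for 52 named genes, 650 kept direction and side of the threshold, 69 lost a call, 4 gained one and 5 changed sign. With 2 libraries per group, changes as small as those of shelterin are at the limit of detection. The causes of these shifts were not tested.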

Other observations

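Pseudouridine synthases that work alone, without a guide RNA, gave another view of the modification that H/ACA particles perform. Of 12 tested, 6 were lower, next to 20.3% of all tested genes, and the other 6 were not called. The median log2 fold change of the 12 was -0.55. PUS7, which modifies transfer and messenger RNA, dropped from a control level of 35.6 ± 2.55 CPM to 11.8 ± 0.0686 CPM (-1.59 ± 0.10), close to the change of TERT. PUS1 (-1.16 ± 0.09), the mitochondrial RPUSD4 (-1.03 ± 0.09) and PUSL1 (-0.80 ± 0.13) were also lower (edgeR adjusted p = 3.00e-06 for PUS7 to 0.000765 for PUSL1).

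Small RNAs with the names SNORA or SCARNA were hardly represented. These names were not split by box class, so the IDs are not H/ACA RNAs alone. Of 233 IDs named SNORA or SCARNA, a search made after the values were seen, 76 had a count of 0 in all libraries and 3 (SCARNA9, SCARNA13 and SCARNA22) reached 10 counts in each. SNORA36A and SNORA56, which lie inside DKC1, had 0 to 3 counts per library.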
